A study of Mus musculus with 92 samples.

Results

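Freeze-injured tibialis anterior (TA) muscle collected at 24 h was compared with freeze-injured TA muscle collected at 10 h, in 11 RNA-Seq libraries from 10 mice, out of 80 libraries in the deposited gene table. The members were chosen by sample label. They are the left (injured) muscles of mice 01 to 05 at 24 h, where mouse 03 has 2 libraries named A and B, and the left muscles of mice 01 to 05 at 10 h. The right, uninjured TA muscles of the same 10 mice gave 11 control libraries. All mice were male C57BL/6J mice, 10 weeks old by the study's methods, each mouse was sampled once, and the injury was made by pressing a steel probe cooled with dry ice onto the exposed left muscle. The study followed the muscle from 3 h to several weeks after this injury. A further pair of 10 h mice in the labels was not analysed here.

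Injured skeletal muscle is cleared and rebuilt by cells that arrive in a set order. Neutrophils enter first, monocytes follow and become macrophages that engulf dead fibers, and muscle stem cells (satellite cells) leave quiescence, switch on the myogenic factors and begin to divide. Stretched or damaged fibers that survive switch on stress genes of their own, and interferons and interleukins tune the incoming leukocytes. The 24 h against 10 h comparison asks which of these programs differed between the later and the earlier time of this window.

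Expression is given as FPKM (a fragment count divided by transcript length and by the number of fragments mapped in that library). Differences are on the log2(FPKM + 0.1) scale, which understates the change of genes with low FPKM, and they are 24 h minus 10 h unless another contrast is named. A gene was called when limma gave a Benjamini-Hochberg adjusted p under 0.05 and the change was at least 2-fold. Lists of 5 FPKM values run from mouse 01 to mouse 05, and the value of mouse 03 at 24 h is the mean of its A and B libraries. Mice of the 2 times are different animals. FPKM are already scaled to sequenced fragments, so the depth behind each value is not known.

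The libraries did not all resemble their groups. With A and B of mouse 03 averaged, the injured muscles of the 5 mice of 24 h correlated with each other at r = 0.917 to 0.974 over the 10523 genes tested, those of 10 h at 0.934 to 0.982, and control muscles at 0.957 to 0.988 (24 h) and 0.978 to 0.989 (10 h). Taken apart, the A and B libraries of mouse 03 correlated at 0.887 in the injured leg and 0.893 in the control leg. Its injured B library correlated at 0.961 with the control B library of the same mouse and at 0.952 with the injured muscle of a 10 h mouse, also numbered 03, while its injured A library correlated at 0.976 with the injured muscle of mouse 04 at 24 h. Lyz2, the lysozyme of neutrophils and macrophages, stood at 391.5 FPKM in the injured A library and 7.05 FPKM in the injured B library. Pdk4, a kinase that slows glucose oxidation, was the other way round, at 70.6 FPKM in A and 1429 FPKM in B. Counts are therefore also given with A alone, with B alone, or without mouse 03, the last an alternative added after the values were seen.

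The injured 10 h muscles also differed among themselves. Those of mice 02 and 05 stayed closest to the control muscles of their time (mean r of 0.963 and 0.956, against 0.870 to 0.902 in mice 01, 03 and 04), and at 24 h mouse 05 lay farthest from its controls (0.802). Defining fiber genes were high in every library, with Acta1, the skeletal muscle actin, at 7422 to 10730.0 FPKM in injured muscle at 24 h and 8318 to 11100.0 FPKM at 10 h. Another of them, Atp2a1, had 2069 to 4083 FPKM in injured muscle at 24 h and 4841 to 5596 FPKM at 10 h, without overlap. The injured medians of Acta1, Ckm, Tnnt3 and Pvalb were also lower at 24 h, and that of Mylpf was higher (12280 against 11950 FPKM). The T cell gene Cd3e did not exceed 0.0218 FPKM in any of the 4 groups. The summed FPKM of the times overlapped in injured muscle (372050 ± 9953 at 24 h, 376770 ± 15720 at 10 h, SD, n = 5 mice each, exact two-sided permutation p = 0.579). In control muscle it was higher at 24 h (401120 ± 18280 at 24 h, 365720 ± 9690 at 10 h, SD, n = 5 each, exact permutation p = 0.00794, the smallest value that 5 against 5 allows, adjusted p = 0.0318 over 4 tests).

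Lists of macrophage, chemokine, antigen presentation and endoplasmic reticulum chaperone genes held many members with more RNA at 24 h in injured muscle. These lists hold only part of the genes called higher. Single immunity-related GTPases, fiber stress genes and fat cell genes were lower, while most tested members of the stress and fat cell lists were not called. Of 10523 genes, 560 were called higher (5.32%) and 164 lower (1.56%) at 24 h, 6.88% in either direction. The genes higher at 24 h had a median log2 difference of 1.56, and 254 of them averaged under 1 FPKM at 10 h. Those 254 passed the filter of 1 FPKM in either injured group only through their 24 h level. Among such genes the filter favoured a rise. They include Nppb, Ms4a7, Emr1, Trem2, Oas1a, Mx1, Gdf15, Gins2 and Mcm5, described below. Of the lower genes 50 averaged under 1 FPKM at 24 h and passed only through their 10 h level. The median over all genes was 0.06. After quantile normalization the split was 519 higher and 257 lower, a share of 66.9% higher against 77.3% without it. With the A library of mouse 03 alone 727 genes were called higher and 229 lower, and 558 and 154 of the calls were shared with the averaged values. With the B library alone 41 and 97 were called, 41 and 87 of them shared. Without the 24 h muscle of mouse 05, 281 genes were called higher. In bulk muscle, more cells of a type and more RNA per cell cannot be told apart.

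The control leg had far fewer calls over the same hours. It had 4 genes called higher (0.0380%) and 17 lower (0.162%), with a median log2 difference of 0.01 over all genes. Its test shares a pooled error with the more variable injured muscles, and genes were kept by their injured FPKM, which can hold these counts down. With library weights the gap in counts between the legs was smaller, as given below. Of the 560 genes higher in injured muscle, 1 was also called higher in the control leg, and of the 164 lower genes 9 were also called lower, with none called in the opposite direction. The genes called higher in injured muscle had a median control difference of 0.19, and 425 of the 560 had a control change in the same direction under 0.25 of the injured one, or an opposite one. For the genes called lower the median control difference was -0.19, and a smaller share, 104 of the 164, met this condition. When the change of the injured leg was tested against that of the control leg, 3 genes were called higher (0.0285%) and 6 lower (0.0570%), 0.0855% in either direction. Taking both legs of a mouse as a pair, with the animal as a block, this test called 65 genes higher (0.618%) and 81 lower (0.770%), 1.39% in either direction. Without mouse 03 at 24 h the unpaired test called 27 and 31.

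**Figure D1:**
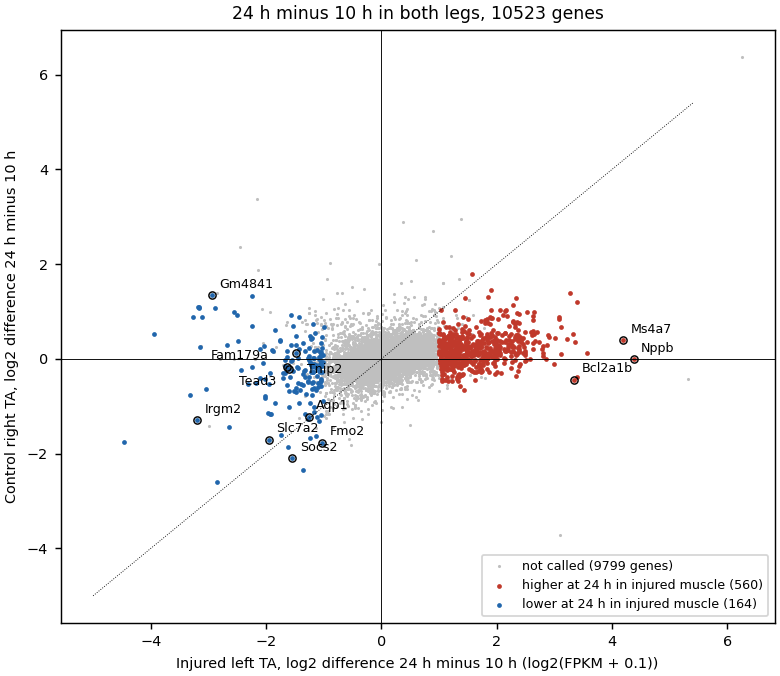
Log2 difference 24 h minus 10 h in the control right TA (vertical axis) against that in the injured left TA (horizontal axis) for 10523 genes, each point 1 gene, with the 560 genes called higher in red, the 164 called lower in blue and named genes circled. The red points run along the horizontal axis with a median control difference of 0.19, while Aqp1, Slc7a2, Socs2 and Fmo2 lie near or below the dotted line of equal change.

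The injured libraries of the 2 times did not overlap for 1110 genes (10.5%), and those of the control leg for 339 (3.22%). In all, 9 genes passed the test in injured muscle, did not overlap between its 5 libraries of each time, and differed in the test between legs. Those higher at 24 h were Nppb, Ms4a7 and Bcl2a1b. Nppb (chromosome 4, 147359898 to 147361314 on mm9), which encodes the precursor of B-type natriuretic peptide, a hormone best known from strained heart muscle, had 12.5, 17.9, 4.66, 7.94 and 28.2 FPKM at 24 h, against 1.82, 0.0425, 0.693, 1.55 and 0.0776 FPKM at 10 h, a log2 difference of 4.38 ± 0.59 (SE, adjusted p = 0.000334). It was listed at 0 in all 10 control values, so in these data it was seen in injured muscle only. These control values have no spread and lower the pooled error of its test. Ms4a7 (chromosome 19, 11395529 to 11410636), a membrane protein of macrophages, had 3.27, 8.87, 5.62, 13.3 and 30.0 FPKM at 24 h, against 0.721, 0.128, 0.300, 1.25 and 0.233 FPKM at 10 h, a log2 difference of 4.20 ± 0.48 (SE, adjusted p = 7.66e-05). The lowest 24 h muscle, that of mouse 01, stood above the highest 10 h muscle, that of mouse 04. Bcl2a1b (chromosome 9, 89094111 to 89102676), a survival gene of the Bcl2 family carried by leukocytes, had 11.1, 8.27, 6.24, 19.6 and 27.1 FPKM at 24 h, against 1.72, 0.343, 1.49, 3.67 and 0.506 FPKM at 10 h, a log2 difference of 3.35 ± 0.51 (SE, adjusted p = 0.000701). Its FPKM depend on how reads were divided among near-identical Bcl2a1 copies and are uncertain.

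Those lower at 24 h included Irgm2, Gm4841, Fam179a, Tead3 and Tnip2, of which the first pair is described with the interferon genes. Fam179a (chromosome 17, 72022601 to 72079009) had 2.52, 4.20, 3.20, 3.87 and 4.16 FPKM at 24 h, against 12.2, 9.46, 14.6, 13.6 and 7.83 FPKM at 10 h, a log2 difference of -1.64 ± 0.20 (SE, adjusted p = 7.66e-05). Tead3 (chromosome 17, 28468618 to 28487750), a transcription factor of the Hippo pathway that binds DNA for the coactivators Yap and Taz, had 1.66, 2.29, 1.45, 1.56 and 1.34 FPKM at 24 h, against 4.59, 6.20, 6.38, 3.99 and 4.93 FPKM at 10 h, a log2 difference of -1.60 ± 0.18 (SE, adjusted p = 7.23e-05). In both genes the 24 h muscles lay within a narrow band below every 10 h muscle, and Tead3 at 24 h overlapped its control levels of 0.934 to 1.65 FPKM. Tnip2 (chromosome 5, 34838745 to 34856628), a partner of the NF-kB inhibitor A20, had 2.17, 3.10, 3.39, 2.78 and 4.26 FPKM at 24 h, against 10.3, 7.52, 10.7, 6.35 and 9.39 FPKM at 10 h, a log2 difference of -1.47 ± 0.20 (SE, adjusted p = 0.000334). Fam179a and Tnip2 remained above their controls of 0.800 to 1.36 and 0.799 to 1.25 FPKM in every 24 h muscle. In the test between legs Gm4841 kept its call when any 1 of the 20 samples was left out, while Irgm2 and Ms4a7 lost it in 11 of 20 fits, Tead3 and Tnip2 in 12, Fam179a in 13, and Nppb and Bcl2a1b in 17, at adjusted p values of up to 0.128. With the animal as a block all 9 had an adjusted p of 0.0447 or less.

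**Figure D2:**
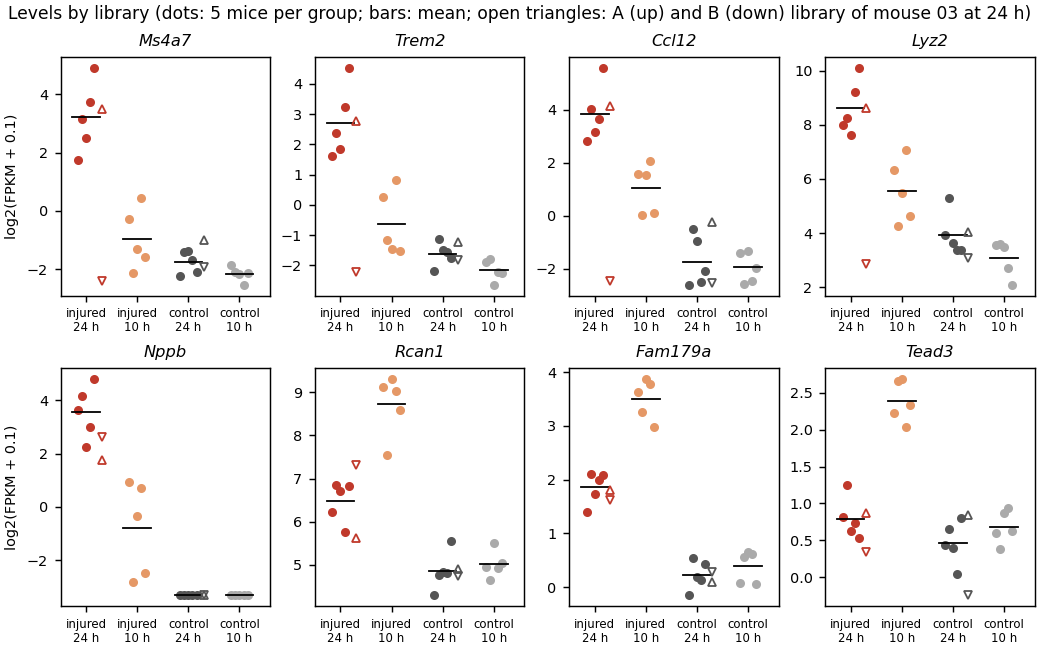
Level of 8 genes as log2(FPKM + 0.1) in injured muscle at 24 h and 10 h and in control muscle at 24 h and 10 h, with 1 dot per mouse (5 per group), the group mean as a bar, and the A and B libraries of mouse 03 as open triangles. The 24 h and 10 h dots of injured muscle do not overlap in any of the 8 genes, while for Ms4a7, Trem2, Ccl12 and Lyz2 the B library of mouse 03 lies below all injured 24 h dots.

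Among the lists, that of monocyte and macrophage genes had the most members called higher. Of 30 monocyte and macrophage genes tested, 24 were called higher and none lower, with a median log2 difference of 2.29 (0.06 over all genes), against a median of 0.52 and no calls in the control leg. In the test of injured against control muscle 28 of the 30 were called higher at 24 h (16.5% of all genes, 0.703% lower) and 26 at 10 h (12.8% of all genes, 0.390% lower). Emr1, which encodes the macrophage surface protein adgre1, had 3.01, 4.53, 2.77, 6.47 and 20.2 FPKM at 24 h, against 0.740, 0.258, 0.721, 2.17 and 0.186 FPKM at 10 h, a log2 difference of 3.01 ± 0.51 (SE, adjusted p = 0.00126). Csf1r, the receptor of the growth factor on which macrophages live, had 4.67, 5.55, 3.21, 7.47 and 22.4 FPKM at 24 h, against 1.96, 0.769, 0.926, 3.72 and 0.515 FPKM at 10 h, a log2 difference of 2.36 ± 0.51 (SE, adjusted p = 0.00473). Trem2, a lipid receptor of phagocytes, had 2.97, 5.09, 3.45, 9.21 and 22.9 FPKM at 24 h, against 1.09, 0.346, 0.266, 1.65 and 0.249 FPKM at 10 h, a log2 difference of 3.33 ± 0.49 (SE, adjusted p = 0.000599). In all 3 genes mouse 05 was highest at 24 h and mouse 04 at 10 h. Emr1 and Trem2 did not overlap between the times, and in Csf1r mouse 03 at 24 h lay below mouse 04 at 10 h.

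Lyz2 had 252.5, 307, 199, 596 and 1102 FPKM at 24 h, against 81.1, 19.1, 44.1, 135 and 24.4 FPKM at 10 h, a log2 difference of 3.09 ± 0.53 (SE, adjusted p = 0.00131). The summed FPKM of all 33 genes of this list in the table, tested or not, ran from 554 to 2784 in injured muscle at 24 h (median 856) and from 142 to 509 at 10 h (median 264), without overlap, against 93.6 to 151 in control muscle at 24 h and 106 to 173 at 10 h. With the A library of mouse 03 alone 25 members were called, with the B library alone 2, and without mouse 03 at 24 h 25. The injured B library held 0.0891 FPKM of Ms4a7, 0.114 of Trem2 and 0.305 of Csf1r, against 11.2, 6.79 and 6.11 FPKM in the A library of the same muscle.

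Genes of macrophages that clear debris and close wounds moved with them. Of 26 such genes 14 were called higher and none lower (median log2 difference 1.29). Arg1, the arginase of alternatively activated macrophages, had 33.7, 16.3, 10.7, 69.8 and 80.4 FPKM at 24 h, against 6.03, 0.471, 2.41, 11.3 and 1.33 FPKM at 10 h, a log2 difference of 3.57 ± 0.62 (SE, adjusted p = 0.00138). Spp1, the matrix cytokine osteopontin, had 54.1, 67.5, 53.5, 216 and 280.4 FPKM at 24 h, against 55.1, 13.9, 13.96, 42.5 and 6.93 FPKM at 10 h, a log2 difference of 2.37 ± 0.54 (SE, adjusted p = 0.00625). Each overlapped through 1 muscle of 10 h, mouse 04 for Arg1 and mouse 01 for Spp1. Of 28 lysosomal and cathepsin genes 9 were called higher and none lower (median 0.53), led by Ctss, a cathepsin of antigen-presenting cells (2.90 ± 0.54 (SE, adjusted p = 0.00225)). With the B library of mouse 03 alone 1 wound macrophage gene and 1 lysosomal gene were called.

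Chemokines that draw monocytes were higher as well. In the list of 14 CC chemokines and receptors 9 were called higher and none lower, with a median log2 difference of 2.101. Ccl12, a mouse ligand of Ccr2, had 6.91, 16.4, 8.88, 12.6 and 47.6 FPKM at 24 h, against 2.91, 0.911, 2.81, 4.10 and 0.967 FPKM at 10 h, a log2 difference of 2.79 ± 0.52 (SE, adjusted p = 0.00218). Ccr2, the receptor of Ccl12 on monocytes, had 15.1, 15.8, 9.92, 29.3 and 59.1 FPKM at 24 h, against 4.77, 1.30, 2.63, 13.9 and 1.53 FPKM at 10 h, a log2 difference of 2.65 ± 0.54 (SE, adjusted p = 0.00322). Every 24 h muscle exceeded every 10 h muscle for Ccl12, while for Ccr2 mouse 03 at 24 h lay below mouse 04 at 10 h, and control muscle stayed under 1 FPKM. Ccl2, the main ligand of Ccr2, had 99.9, 94.6, 60.8, 159 and 284 FPKM at 24 h, against 36.4, 4.88, 38.1, 78.8 and 14.8 FPKM at 10 h, a log2 difference of 2.33 ± 0.63 (SE, adjusted p = 0.0147), and the same pair of muscles overlapped. With the B library of mouse 03 alone none of the 14 was called, and without the 10 h muscles of mice 01 and 02 (left out after the values were seen) 4 were.

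Of 13 CXC chemokines and receptors tested, 4 were called higher (5.32% of all genes) and none lower (median 0.35). They were Pf4, Ppbp, Cxcl16 and Cxcr4. Pf4, platelet factor of platelets and macrophages, had 61.0, 68.4, 42.6, 125 and 297 FPKM at 24 h, against 17.6, 4.36, 8.63, 23.7 and 4.68 FPKM at 10 h, a log2 difference of 3.27 ± 0.54 (SE, adjusted p = 0.00114). Ppbp, whose product gives rise to a neutrophil attractant, differed by 2.33 ± 0.54 (SE, adjusted p = 0.00655). The neutrophil attractants Cxcl5 and Cxcl1 were not called. Cxcl5 had 20.7, 8.23, 7.11, 10.2 and 18.5 FPKM at 24 h, against 30.1, 2.46, 22.8, 33.3 and 5.66 FPKM at 10 h, a log2 difference of -0.10 ± 0.53 (SE, adjusted p = 0.91), and Cxcl1 had 6.11, 4.79, 4.22, 3.92 and 5.05 FPKM at 24 h, against 6.11, 0.978, 6.90, 7.10 and 2.29 FPKM at 10 h, a log2 difference of 0.35 ± 0.46 (SE, adjusted p = 0.618). Both overlapped fully between the times and were far above control muscle at each, with a control level of at most 0.104 FPKM for Cxcl5. The pair of cytokines Il1b and Il6 was not called either, at log2 differences of 1.20 ± 0.64 (SE, adjusted p = 0.188) and -0.38 ± 0.50 (SE, adjusted p = 0.625).

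Neutrophil genes showed less of a difference than macrophage genes. Of 23 tested, Clec4d, Clec4e and Csf3r were called higher (5.32% of all genes), Camp lower (1.56% of all genes), and the median was 0.84. Csf3r, the receptor of granulocyte colony-stimulating factor, had 12.3, 8.37, 3.52, 9.23 and 32.0 FPKM at 24 h, against 5.33, 0.474, 4.49, 6.35 and 0.659 FPKM at 10 h, a log2 difference of 2.13 ± 0.60 (SE, adjusted p = 0.0174). S100a8, a calprotectin subunit, had 390.5, 233, 141, 352 and 708 FPKM at 24 h, against 599, 62.2, 233, 151 and 35.8 FPKM at 10 h, a log2 difference of 1.22 ± 0.87 (SE, adjusted p = 0.333), with overlapping groups. The count of 3 called higher was 7 without the 24 h muscle of mouse 03 or the 10 h muscle of mouse 01, 5 or 6 without the 10 h muscle of mouse 03 or 04, and 1 without the 24 h muscle of mouse 05 or the 10 h muscle of mouse 02 or 05. Csf3r itself was not called without mouse 05 at 24 h (adjusted p = 0.0593), mouse 02 at 10 h (0.0514) or mouse 05 at 10 h (0.0549).

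Camp encodes the granule peptide cathelicidin, made by neutrophil precursors in the bone marrow. It had 0.140, 0, 0.0330, 0 and 0 FPKM at 24 h, against 113, 19.3, 0.0687, 0.248 and 0.115 FPKM at 10 h, so its difference rested on the 10 h muscles of mice 01 and 02. The same muscles held Ngp, another granule gene, at 59.0 and 6.96 FPKM, and Bglap, the bone protein osteocalcin, at 14.96 and 7.09 FPKM, while no other injured muscle exceeded 0.255 FPKM of Bglap. The 10 genes of this kind, chosen after the values were seen, summed to 3.24 to 14.99 FPKM in injured muscle at 24 h and 4.27 to 255 FPKM at 10 h. Their part in the other results was not tested beyond leaving these 2 muscles out, which gave 364 genes called higher and 136 lower over all genes.

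**Figure D3:**
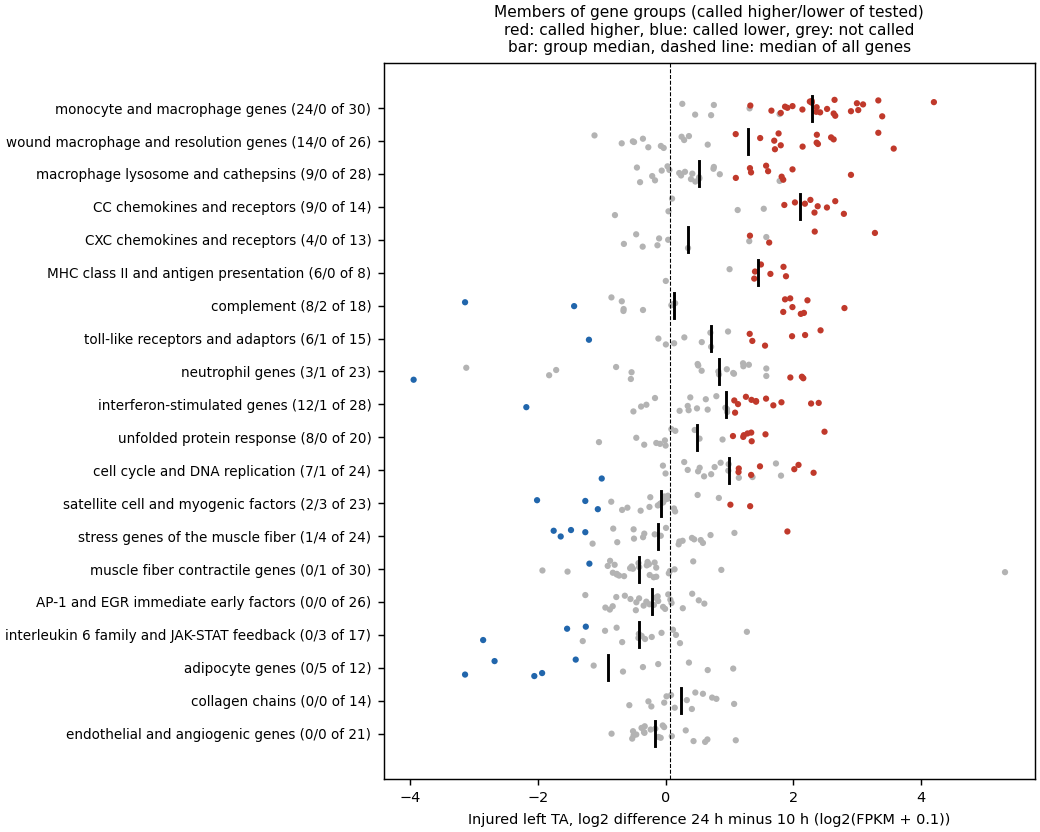
Log2 difference 24 h minus 10 h in injured muscle (horizontal axis) for the members of 20 gene groups, each point 1 gene, with calls in colour, the group median as a bar and the median of all genes (0.06) as a dashed line. Macrophage genes (24 of 30 called higher) and CC chemokines (9 of 14) lie to the right, and adipocyte genes (5 of 12 called lower) to the left.

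Genes of antigen presentation, and some of complement and of the pathogen sensors, were also higher at 24 h. Of 17 genes of MHC class II and antigen presentation 8 were tested and 6 called higher (median 1.45). All 8 exceeded the control leg at 24 h (16.5% of all genes), against 3 of 8 at 10 h (12.8% of all genes). H2-Aa, the alpha chain of the class II molecule I-A, had 21.04, 29.1, 14.8, 32.0 and 60.7 FPKM at 24 h, against 16.2, 6.29, 8.26, 15.1 and 4.55 FPKM at 10 h, a log2 difference of 1.64 ± 0.46 (SE, adjusted p = 0.0165), where mouse 03 at 24 h lay below mice 01 and 04 at 10 h. Without mouse 05 at 24 h H2-Aa had an adjusted p of 0.0547 and 2 of the 8 were called. Of 18 complement genes 8 were called higher, led by the anaphylatoxin receptor C3ar1, and 2 lower. Their median was 0.13, against 0.40 in the control leg, and 9 of the 18 exceeded the control leg at 24 h against 13 at 10 h.

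C1qa, which encodes a chain of the complement starter C1q, had 5.96, 15.4, 8.72, 19.1 and 55.2 FPKM at 24 h, against 6.17, 3.28, 3.41, 5.72 and 1.23 FPKM at 10 h, a log2 difference of 2.12 ± 0.55 (SE, adjusted p = 0.0112). C7, a part of the membrane attack complex, was lower, with 0.287, 0.5001, 0.684, 0.687 and 0.502 FPKM at 24 h, against 2.14, 1.12, 3.68, 1.13 and 0.870 FPKM at 10 h, a log2 difference of -1.43 ± 0.42 (SE, adjusted p = 0.021), and was not called without the 10 h muscle of mouse 03 (adjusted p = 0.0646). Leaving out mouse 05 of 24 h left 4 complement genes called higher, and leaving out mouse 05 of 10 h left 5. Among 15 toll-like receptor genes and adaptors 6 were called higher, Tlr7 most (2.42 ± 0.40 (SE, adjusted p = 0.00114)), while Myd88, the adaptor most of these receptors share, was lower (-1.20 ± 0.28 (SE, adjusted p = 0.00683)).

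Interferon-stimulated genes differed in both directions. Of 28 tested, 12 were called higher, 1 lower, and the median was 0.95, against -0.11 in the control leg. The genes higher at 24 h were antiviral effectors and proteasome genes (Oas1a, Mx1, Oas2, Irf7, Rtp4, Oasl2, Oasl1, Psmb9, Usp18, Isg15, Bst2 and Psmb8). Of the 28, 21 exceeded the control leg at 24 h (16.5% of all genes) against 6 at 10 h (12.8% of all genes). Oas1a, an enzyme that senses double-stranded RNA, had 1.75, 2.79, 1.21, 4.18 and 12.4 FPKM at 24 h, against 0.805, 0.305, 0.300, 1.27 and 0.364 FPKM at 10 h, a log2 difference of 2.40 ± 0.47 (SE, adjusted p = 0.00285). Irf7, the transcription factor that amplifies type I interferon, had 3.40, 4.73, 2.09, 5.92 and 19.7 FPKM at 24 h, against 1.79, 1.10, 1.40, 1.92 and 1.77 FPKM at 10 h, a log2 difference of 1.69 ± 0.38 (SE, adjusted p = 0.00535). Mx1, an antiviral GTPase, had 0.810, 2.45, 0.444, 1.09 and 3.40 FPKM at 24 h, against 0.258, 0.0954, 0.0621, 0.254 and 0.393 FPKM at 10 h, a log2 difference of 2.28 ± 0.44 (SE, adjusted p = 0.00255). The B library of mouse 03 was at 0.164, 0.257 and 0 FPKM for these genes, and none of the 28 was called higher with it alone, against 15 with A alone. Without the 24 h muscle of mouse 05, 5 were called, and 6 without the 10 h muscle of mouse 02.

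Of the immunity-related GTPases, which interferon gamma induces to attack vacuoles that hold pathogens, 3 of 6 tested were lower at 24 h (a list drawn up after the values were seen). Irgm2 (chromosome 11, 58028479 to 58036285) had 2.23, 2.95, 2.95, 3.01 and 4.62 FPKM at 24 h, against 30.3, 31.5, 31.6, 19.8 and 33.5 FPKM at 10 h, a log2 difference of -3.19 ± 0.24 (SE, adjusted p = 1.68e-07). Igtp (chromosome 11, 58013058 to 58021094), also called Irgm3, had 2.78, 4.16, 2.41, 4.24 and 6.79 FPKM at 24 h, against 15.5, 18.7, 14.4, 17.2 and 23.9 FPKM at 10 h, a log2 difference of -2.18 ± 0.25 (SE, adjusted p = 7.66e-05). Gm4841 had 0.636, 1.70, 2.15, 2.12 and 3.46 FPKM at 24 h, against 15.2, 47.4, 11.9, 5.83 and 11.7 FPKM at 10 h, a log2 difference of -2.93 ± 0.46 (SE, adjusted p = 0.00081). In each of these genes every 24 h muscle was below every 10 h muscle, and with the B library of mouse 03 alone all 3 were still called, at log2 differences of -3.34, -2.30 and -3.33.

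In the control leg only Irgm2 of these was called. It had 1.75, 3.38, 1.41, 2.04 and 2.66 FPKM in control muscle at 24 h, against 7.80, 3.23, 5.41, 6.43 and 5.12 FPKM at 10 h, a log2 difference of -1.29 ± 0.24 (SE, adjusted p = 0.0194), and the injured leg fell by more (test between legs, adjusted p = 0.0334, with the animal as a block 0.0182). For Igtp the test between legs gave 0.084, and 0.00661 with the animal as a block. Gm4841 had 2.26, 2.40, 1.67, 4.71 and 3.61 FPKM in control muscle at 24 h, against 1.26, 1.78, 0.625, 1.23 and 0.624 FPKM at 10 h, a log2 difference of 1.34 ± 0.46 (SE, adjusted p = 0.203). The other three immunity-related GTPases were not called in injured muscle, with Irgm1 at -0.26 ± 0.16 (SE, adjusted p = 0.263) and Iigp1 at -0.39 ± 0.34 (SE, adjusted p = 0.443). Members of this family share sequence, so reads could be divided among them. Irf1, a factor that carries the interferon gamma signal, was not called (0.34 ± 0.24 (SE, adjusted p = 0.316)).

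**Figure D4:**
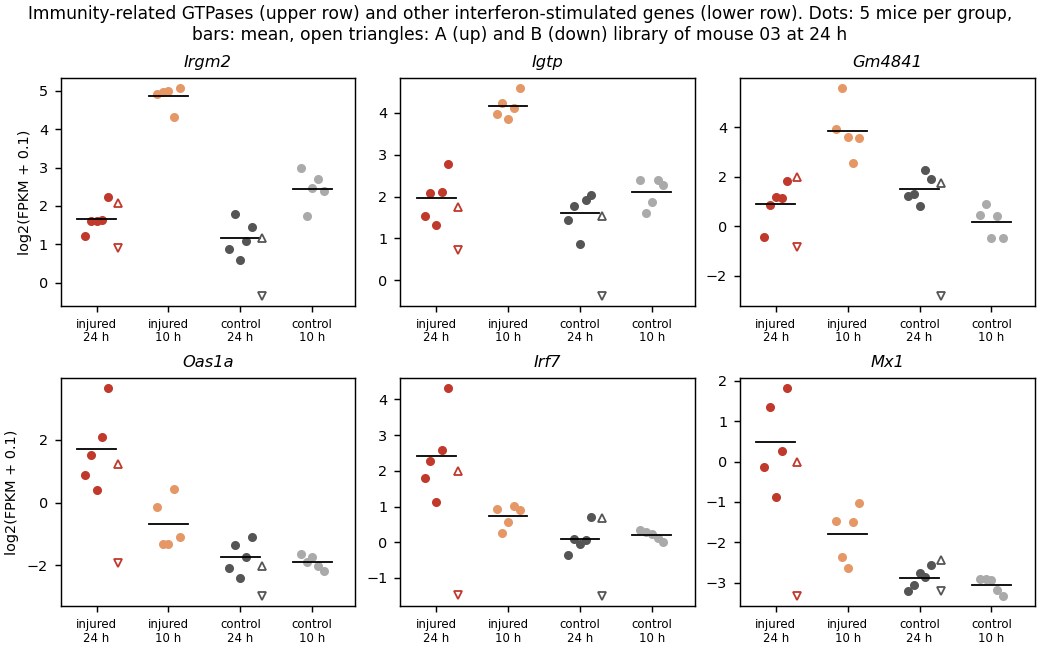
Level of the GTPases Irgm2, Igtp and Gm4841 (upper row) and of Oas1a, Irf7 and Mx1 (lower row) as log2(FPKM + 0.1) in the 4 groups, with 1 dot per mouse (5 per group), the mean as a bar and the A and B libraries of mouse 03 as open triangles. The upper row is highest in injured muscle at 10 h, and the lower row is highest in injured muscle at 24 h.

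Promoters of these genes are shown because members with opposite changes carry the same short motifs. RefSeq windows (GRCm38.p6, 250 bases before to 50 after the start) were found for 12 of 16 interferon-stimulated genes looked up. Capitals mark GAAA, any 2 bases, GAAA, the core of the interferon-stimulated response element, and TTC, any 3 bases, GAA, the core of the gamma-activated sequence. Both are textbook consensus letters and were searched on both strands and independently of each other. The first was in 7 of the 12 genes and in 3.44% of 32851 windows, the second in 5 of the 12 and 8.3% of windows. Irgm2 (chr11:58214727-58215026, plus strand) and Igtp (chr11:58199306-58199605, plus strand) hold both in the same order and spacing, and Oas1a (chr5:120907476-120907775, minus strand), which was higher at 24 h, also holds both. A match in the letters does not show that a factor binds.
Irgm2: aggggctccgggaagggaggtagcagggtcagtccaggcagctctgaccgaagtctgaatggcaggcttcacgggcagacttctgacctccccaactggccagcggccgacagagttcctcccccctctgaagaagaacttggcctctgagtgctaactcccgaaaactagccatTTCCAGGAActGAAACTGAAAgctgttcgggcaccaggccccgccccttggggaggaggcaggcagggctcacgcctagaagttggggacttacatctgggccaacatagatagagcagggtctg
Igtp: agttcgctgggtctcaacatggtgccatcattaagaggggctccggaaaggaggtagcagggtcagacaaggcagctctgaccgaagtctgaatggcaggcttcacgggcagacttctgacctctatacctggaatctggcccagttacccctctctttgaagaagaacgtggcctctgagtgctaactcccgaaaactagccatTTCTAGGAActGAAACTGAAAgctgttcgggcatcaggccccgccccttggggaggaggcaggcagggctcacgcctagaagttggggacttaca
Oas1a: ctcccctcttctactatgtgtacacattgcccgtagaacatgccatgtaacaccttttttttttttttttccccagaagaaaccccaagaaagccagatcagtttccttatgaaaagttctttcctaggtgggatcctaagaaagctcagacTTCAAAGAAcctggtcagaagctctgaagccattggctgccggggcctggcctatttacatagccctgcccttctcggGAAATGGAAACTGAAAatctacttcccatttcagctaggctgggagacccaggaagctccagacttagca

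Chaperones of the endoplasmic reticulum, which fold secreted proteins, formed another group that was higher. Of 20 genes of the unfolded protein response 8 were called higher and none lower (median 0.49), and these were Sdf2l1, Manf, Creld2, Pdia6, Pdia4, Hyou1, Hsp90b1 and Hspa5, all residents of that compartment or secreted from it. Sdf2l1, a cofactor of the chaperone BiP, had 8.65, 25.7, 6.56, 14.4 and 28.9 FPKM at 24 h, against 2.86, 1.47, 3.08, 4.19 and 1.71 FPKM at 10 h, a log2 difference of 2.49 ± 0.35 (SE, adjusted p = 0.000441). Manf, a secreted stress protein, had 19.3, 51.8, 16.04, 23.4 and 49.9 FPKM at 24 h, against 11.1, 5.62, 12.2, 16.1 and 6.60 FPKM at 10 h, a log2 difference of 1.56 ± 0.31 (SE, adjusted p = 0.00294). Both had their highest 24 h values in mice 02 and 05, and Sdf2l1 did not overlap between the times. Hspa5, which encodes BiP itself, had 206, 414, 224, 162 and 382 FPKM at 24 h, against 166, 76.8, 167.7, 166 and 86.2 FPKM at 10 h, a log2 difference of 1.05 ± 0.27 (SE, adjusted p = 0.0109). Without mouse 02 or 05 of either time its change fell under 2-fold, with adjusted p values of 0.0344 to 0.037. Members of the same list that answer to the factor Atf4 were not called, such as Asns (-0.00 ± 0.36 (SE, adjusted p = 0.998)), Chac1 (-1.04 ± 0.63 (SE, adjusted p = 0.244), called without mouse 03 of 24 h) and Ddit3 (-0.01 ± 0.34 (SE, adjusted p = 0.985)). With the B library of mouse 03 alone 5 of the 20 were called.

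The promoters of called chaperones are shown for an element known from genes of this kind. RefSeq windows were found for 6 of the 8 genes, and 4 of these (Hspa5, Pdia6, Hsp90b1 and Creld2) hold CCAAT, any 9 bases, CCACG, the textbook endoplasmic reticulum stress response element, in capitals here, on either strand. The same letters stood in 0.119% of the 32851 windows. Hspa5 lies at chr2:34771840-34772139, plus strand, and Pdia6 at chr12:17266339-17266638, plus strand.
Hspa5: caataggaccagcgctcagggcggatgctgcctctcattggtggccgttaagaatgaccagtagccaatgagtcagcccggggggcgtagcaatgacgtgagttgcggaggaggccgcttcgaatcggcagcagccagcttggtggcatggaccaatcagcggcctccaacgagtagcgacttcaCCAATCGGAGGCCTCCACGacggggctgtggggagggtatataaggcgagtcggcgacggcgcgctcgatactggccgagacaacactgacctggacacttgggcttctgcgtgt
Pdia6: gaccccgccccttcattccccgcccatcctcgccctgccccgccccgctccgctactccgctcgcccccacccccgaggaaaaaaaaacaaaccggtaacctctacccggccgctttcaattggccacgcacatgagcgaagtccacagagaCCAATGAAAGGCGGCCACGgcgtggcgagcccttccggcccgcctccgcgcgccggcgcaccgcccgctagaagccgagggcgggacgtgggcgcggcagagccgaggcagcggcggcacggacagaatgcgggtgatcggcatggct

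Among the listed satellite cell, myogenic and fiber stress genes, a few were lower at 24 h, and fewer were higher. Of 23 satellite cell and myogenic genes, Myod1, Myf6 and Eya4 were called lower, Id2 and Itga7 higher, and the median was -0.07 (0.06 over all genes). The other 18 were not called, and over all genes 1.56% were called lower and 5.32% higher. Myod1, the factor that commits satellite cells to the muscle lineage, had 7.84, 12.8, 12.5, 9.67 and 22.5 FPKM at 24 h, against 112, 20.8, 56.4, 59.5 and 38.7 FPKM at 10 h, a log2 difference of -2.01 ± 0.41 (SE, adjusted p = 0.00365). Only the 10 h muscle of mouse 02 came within the 24 h range. Id2, which binds partners of MyoD and holds them from DNA, had 7.15, 11.7, 4.47, 10.7 and 16.7 FPKM at 24 h, against 6.36, 2.21, 3.23, 5.33 and 2.58 FPKM at 10 h, a log2 difference of 1.32 ± 0.31 (SE, adjusted p = 0.00715), with overlap. Myog, which acts after Myod1, was not called (-0.01 ± 0.59 (SE, adjusted p = 0.996)). Leaving out the 10 h muscle of mouse 03 left 1 of the 3 called lower.

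Among 24 stress genes of the fiber 4 were called lower (Otud1, Gadd45a, Rrad and Myf6, which is also in the myogenic list) and 1 higher. Over all genes 1.56% were lower and 5.32% higher. The median of the list was -0.12, and 19 were not called. The summed FPKM of its 25 genes overlapped in injured muscle, at 6161 to 11650 at 24 h and 4681 to 11830 at 10 h. Of the 24, 18 exceeded the control leg at 24 h (16.5% of all genes) and 18 at 10 h (12.8%). Gadd45a, a growth arrest gene, had 58.2, 104, 159.7, 19.8 and 63.7 FPKM at 24 h, against 223, 149.6, 268, 209.5 and 195 FPKM at 10 h, a log2 difference of -1.64 ± 0.46 (SE, adjusted p = 0.0167). The B library of mouse 03 held 276 FPKM of Gadd45a and the A library 43.6, and with B alone none of the 4 was called. Nmrk2, a kinase that makes NAD in muscle, was the one that was higher, with 76.5, 245, 103, 294 and 185 FPKM at 24 h, against 51.1, 21.6, 31.9, 151 and 26.7 FPKM at 10 h, a log2 difference of 1.91 ± 0.53 (SE, adjusted p = 0.0168). In the control leg Nmrk2 differed by 1.46 ± 0.53 (SE, adjusted p = 0.239), and its test between legs gave 0.829. Leaving out the 24 h muscle of mouse 04, or the 10 h muscle of mouse 01 or 03, left 2 of the 4 called lower.

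The calcineurin inhibitor Rcan1, named after its values were seen, was among the clearest falls. It had 75.0, 115, 104, 54.2 and 113 FPKM at 24 h, against 561, 186, 640.4, 521 and 387 FPKM at 10 h, a log2 difference of -2.25 ± 0.29 (SE, adjusted p = 0.000223). No 24 h muscle reached the lowest 10 h muscle, mouse 02, and control muscle ranged over 19.4 to 47.1 FPKM at 24 h and 24.7 to 45.5 FPKM at 10 h. The test between legs gave 0.0584, and 0.00867 with the animal as a block. Of 30 contractile genes 1 was called, Tnnt1, the slow-fiber troponin T (lower, -1.19 ± 0.41 (SE, adjusted p = 0.0406), lost in 6 of the 20 fits that left out 1 sample, with an adjusted p of up to 0.113), and the median of the list was -0.42, against -0.06 in the control leg. Over all genes 6.88% were called in either direction. Ampd1, the AMP deaminase of fast fibers, was lower, with 186, 157, 207, 122 and 129 FPKM at 24 h, against 352, 351, 321, 239.7 and 437 FPKM at 10 h, a log2 difference of -1.09 ± 0.17 (SE, adjusted p = 0.000957), and did not overlap, though its change fell under 2-fold without mouse 04 at 24 h or mouse 05 at 10 h (adjusted p = 0.00347 and 0.00377).

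Of 17 genes of the interleukin 6 and JAK-STAT group 3 were called lower, Cish, Socs2 and Stat3 (1.56% of all genes). None was called higher (5.32% of all genes), and the median was -0.42. Socs2 was also called lower in the control leg (-2.09, limma adjusted p = 0.00316), and its test between legs gave 0.597. Stat3, the factor that interleukin 6 activates, had 17.3, 23.9, 38.3, 14.9 and 26.9 FPKM at 24 h, against 69.4, 36.0, 74.0, 56.5 and 46.9 FPKM at 10 h, a log2 difference of -1.25 ± 0.28 (SE, adjusted p = 0.00592). With the B library of mouse 03 alone (53.9 FPKM, against 22.8 FPKM in A) Stat3 had an adjusted p of 0.0686. Cish, an inhibitor of Stat5 signals, had 0.968, 0.907, 8.97, 0.912 and 1.48 FPKM at 24 h, against 15.6, 20.9, 14.8, 6.03 and 10.2 FPKM at 10 h (-2.86 ± 0.74 (SE, adjusted p = 0.0117)), and mouse 03 stood apart from the other 24 h mice. The control leg differed by -2.60 ± 0.74 (SE, adjusted p = 0.125), and the test between legs gave 0.938. Without mouse 03 the log2 difference of Cish was -3.45. Socs3 was not called (-0.77 ± 0.36 (SE, adjusted p = 0.129)).

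Some genes of DNA replication were higher at 24 h, at low levels. Of 40 cell cycle genes listed, 24 reached 1 FPKM on average in either injured group and were tested. Gins2, Rrm2, Mcm5, Prim1, Cdt1, Mcm6 and Lig1 were called higher and Aurka lower (median 0.98). Gins2, part of the replicative helicase, had 0.713, 1.32, 1.22, 1.93 and 4.64 FPKM at 24 h, against 0.389, 0.261, 0.189, 0.200 and 0.212 FPKM at 10 h, a log2 difference of 2.31 ± 0.40 (SE, adjusted p = 0.00133). Mcm5, another part of it, had 0.7103, 2.13, 0.934, 1.82 and 4.43 FPKM at 24 h, against 0.719, 0.295, 0.240, 0.335 and 0.216 FPKM at 10 h, a log2 difference of 2.01 ± 0.38 (SE, adjusted p = 0.00219). At 10 h no muscle reached 1 FPKM of either gene, so both were tested only because of their 24 h level. The 7 called higher are enzymes and loaders of DNA synthesis, and the mitotic gene Top2a was not called (1.73 ± 0.69 (SE, adjusted p = 0.0759)), though it was called without mouse 01 of 24 h or mouse 01 of 10 h. The number called higher was 14 without the 24 h muscle of mouse 01, 12 without the 10 h muscle of mouse 01, and 4 without mouse 05 of 24 h or without mouse 05 of 10 h.

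Of 18 growth factor genes of the EGF, FGF and IGF families 1 was called higher (5.32% of all genes) and 2 lower (1.56% of all genes). The call of the higher gene was lost in 23 of 35 alternatives. Fgf2, a mitogen of satellite cells, was lower, with 1.06, 0.592, 0.802, 0.718 and 0.512 FPKM at 24 h, against 3.59, 2.26, 4.26, 2.17 and 3.48 FPKM at 10 h, a log2 difference of -1.95 ± 0.27 (SE, adjusted p = 0.000402), without overlap. Hbegf, an EGF receptor ligand, was lower too, with 12.5, 15, 18.2, 6.97 and 11.8 FPKM at 24 h, against 86.4, 15.4, 36.5, 53.3 and 18.4 FPKM at 10 h, a log2 difference of -1.47 ± 0.35 (SE, adjusted p = 0.0072), and overlapped only between mouse 03 at 24 h and mouse 02 at 10 h. Among 15 genes of the TGF-beta group Gdf15, a stress cytokine, and Tgfb1 were called higher (5.32% of all genes). Tgfb2, Fst and Smad3 were called lower (1.56% of all genes). Gdf15 had 1.23, 6.85, 1.26, 0.439 and 0.997 FPKM at 24 h, against 0.319, 0.0824, 0.119, 0.379 and 0.151 FPKM at 10 h, a log2 difference of 2.37 ± 0.49 (SE, adjusted p = 0.00365), with mouse 02 well above the rest.

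Some fat and tendon genes were lower at 24 h than at 10 h, at levels that varied between muscles. Of 12 adipocyte genes 5 were called lower (Cfd, Retn, Adipoq, Cidec and Scd1, 1.56% of all genes) and none higher (median -0.90). The summed FPKM of all 14 genes of the list was not lower at 24 h. In injured muscle it ran from 538 to 697 at 24 h (median 610) and from 457.5 to 635 at 10 h (median 533). Cfd, the adipocyte protease adipsin, had 0.641, 0.705, 1.18, 2.42 and 5.46 FPKM at 24 h, against 39.4, 21.9, 9.62, 10.1 and 6.49 FPKM at 10 h, a log2 difference of -3.14 ± 0.63 (SE, adjusted p = 0.00316), and no muscle overlapped. Control muscle ranged over 3.36 to 20.6 FPKM at 24 h and 2.26 to 16.1 FPKM at 10 h. The count was 3 without mouse 02 at 24 h, mouse 01 at 10 h or mouse 02 at 10 h, and 1 without both of these 10 h muscles. Comp, a cartilage and tendon matrix protein, had 0.0120, 1.82, 0.102, 1.41 and 0.363 FPKM at 24 h, against 5.65, 4.05, 4.94, 4.29 and 1.15 FPKM at 10 h, a log2 difference of -2.88 ± 0.74 (SE, adjusted p = 0.0107). In a list of tendon and cartilage genes drawn up after the values were seen, 6 of 9 tested were called lower and 1 higher, Scx, a transcription factor of tendon cells (1.01 ± 0.35 (SE, adjusted p = 0.042)), whose call was lost in 7 of the 20 fits that left out 1 sample (adjusted p of up to 0.131). The summed FPKM of all 11 genes of that list ranged over 13.1 to 124 FPKM in injured muscle at 24 h and 61.5 to 371 FPKM at 10 h. Whether neighbouring tissue entered some dissections was not tested.

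Of the 21 genes called in the control leg, 10 were also called in injured muscle in the same direction, A930003A15Rik higher and 9 lower. Aqp1, the water channel of small vessels, had 45.2, 42.3, 44.4, 58.1 and 46.5 FPKM at 24 h, against 105, 129.8, 120.3, 106 and 102 FPKM at 10 h, a log2 difference of -1.25 ± 0.18 (SE, adjusted p = 0.000599), and the control leg had 30.2, 38.6, 59.6, 53.9 and 81.3 FPKM at 24 h, against 111, 102, 140.5, 122 and 108 FPKM at 10 h. No value of either leg overlapped between the times, and the test between legs gave 0.965. Slc7a2, a carrier of cationic amino acids, had 4.67, 2.40, 7.99, 5.51 and 2.42 FPKM at 24 h, against 13.2, 20.4, 19.7, 10.9 and 20.0 FPKM at 10 h, a log2 difference of -1.96 ± 0.29 (SE, adjusted p = 0.000624) in injured muscle and a control difference of -1.70 ± 0.29 (SE, adjusted p = 0.0118). Socs2, an inhibitor of growth hormone signals, had 2.39, 3.19, 6.61, 4.20 and 4.74 FPKM at 24 h, against 12.6, 12.8, 12.1, 7.39 and 16.1 FPKM at 10 h, a log2 difference of -1.54 ± 0.30 (SE, adjusted p = 0.00275) and a control difference of -2.09 ± 0.30 (SE, adjusted p = 0.00316). Tbc1d1, which gates glucose transporter traffic in fibers, had 11.3, 9.93, 22.2, 14.9 and 11.2 FPKM at 24 h, against 33.7, 30.0, 27.7, 36.2 and 23.6 FPKM at 10 h, a log2 difference of -1.16 ± 0.21 (SE, adjusted p = 0.00205) and a control difference of -1.13 ± 0.21 (SE, adjusted p = 0.0209).

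The remaining members of this set, Fmo2, Cyp26b1, Prima1, Lonrf3 and Irgm2, were lower in both legs as well, and apart from Irgm2 their test between legs gave adjusted p values of 0.282 to 0.824. The injured calls of Fmo2, Cyp26b1, Prima1 and Lonrf3 were lost in 3 to 5 of the 20 fits that left out 1 sample. Nr1d1, a repressor of the circadian clock, was called in the control leg, with 33.0, 28.4, 10.4, 13.8 and 31.2 FPKM at 24 h, against 3.16, 3.79, 2.25, 4.89 and 2.39 FPKM at 10 h, a log2 difference of 2.70 ± 0.45 (SE, adjusted p = 0.0118), while in injured muscle it was not called (0.90 ± 0.45 (SE, adjusted p = 0.158)) unless the 10 h muscle of mouse 01 was left out. Its test between legs gave an adjusted p of 0.225, and 0.0627 with the animal as a block. Of 18 clock genes none was called in injured muscle and 2 were higher in the control leg. The hour of day at which muscles were collected is not given in the sources used here, and its part in these changes was not tested.

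**Figure D5:**
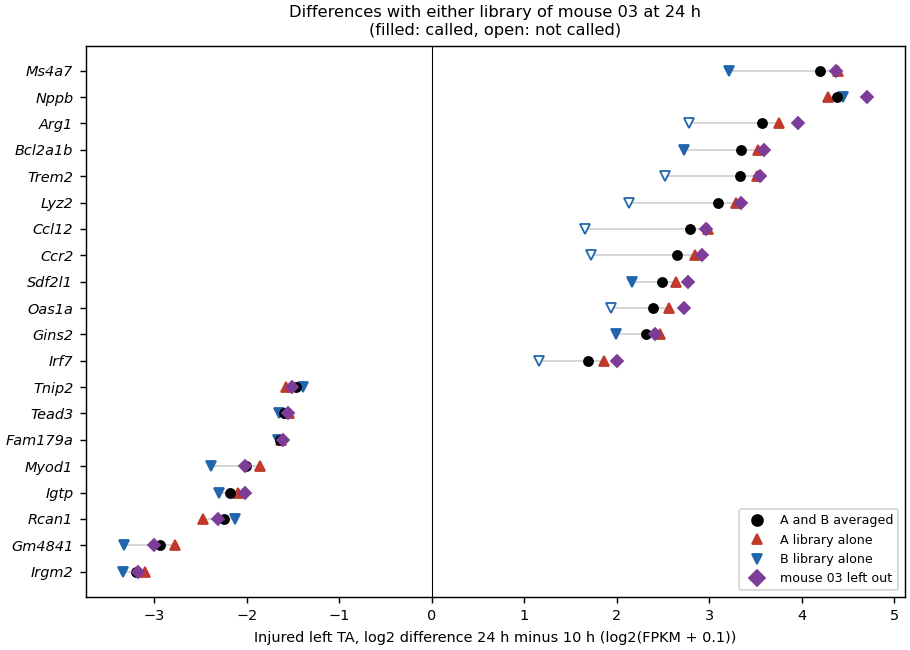
Log2 difference 24 h minus 10 h in injured muscle (horizontal axis) for 20 genes, computed with the A and B libraries of mouse 03 averaged, with either library alone and without mouse 03 at 24 h, with filled symbols for calls and open symbols for differences that were not called. Arg1, Trem2, Lyz2, Ccl12, Ccr2, Oas1a and Irf7 were not called with the B library alone, and the 8 genes lower at 24 h were called in every version.

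Several lists had no call between the times in injured muscle. None of 26 immediate early genes was called (median -0.22), with Fos at 5.11, 6.72, 11.7, 16.5 and 16.8 FPKM at 24 h, against 22.1, 3.78, 30.8, 13.01 and 3.78 FPKM at 10 h (-0.04 ± 0.64 (SE, adjusted p = 0.971)). In this list 15 genes exceeded the control leg at 24 h (16.5% of all genes) and 22 at 10 h (12.8% of all genes). No member was called among 22 hypoxia and glycolysis genes, 33 ribosome biogenesis genes, 31 proteasome subunits, 14 collagen chains, 32 genes of oxidative phosphorylation and 21 endothelial genes, whose medians ran between -0.16 and 0.26. Among the proteasome subunits 14 of 31 did not overlap between the times (10.5% of all genes), at a median of 0.26 in injured muscle and 0.32 in the control leg. The metallothionein Mt2 stayed high at both times (-0.34 ± 0.84 (SE, adjusted p = 0.805)). A missed call leaves a difference possible within these errors.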

How the data were processed

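The deposited gene table gives FPKM, which the authors estimated with Cufflinks from reads aligned to mm9 with TopHat. The tools named in the labels are TopHat, Cufflinks and Cuffdiff. Libraries were strand-specific and made from polyadenylated RNA. Whether the FPKM carry a library scaling of Cuffdiff is not given in the sources used here. The deposited isoform table was not used.

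Left (injured) and right (control) libraries were grouped by label, and the A and B libraries of mouse 03 at 24 h were averaged per leg. Genes with a mean of at least 1 FPKM in either injured group were kept (10523 of 23811). limma 3.58.1 in R 4.3.3 (lmFit, eBayes with trend) was fitted to log2(FPKM + 0.1) of 20 samples in 4 groups, with 16 residual degrees of freedom. Calls needed a Benjamini-Hochberg adjusted p under 0.05 over all genes tested and a 2-fold change. The test was tried on simulated data first. For library totals an exact permutation test (two-sided) was used.

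The labels name separate mice, so p-values measure a spread between mice, pooled over the 4 groups of both legs. The injured comparison thus borrows error from control muscles, which resembled each other more, and legs of 1 mouse enter as separate samples. With the 2 injured groups alone fewer genes were called, as given below. The 2 legs of 1 mouse are paired by design, and their deviations from the group means correlated at 0.01 to 0.46 at 24 h and -0.06 to 0.42 at 10 h. Members and gene lists (50 lists, and 4 drawn up later) were chosen with earlier results of these data known. Genes named are up to 12 rises and 12 falls with at least 5 FPKM in the higher group that did not overlap in injured muscle and differed between legs, members of the lists, and genes called in both legs. Some genes that these rules take are not reported here. Others are said to be chosen after their values were seen. Rows that share a symbol (764 rows, 259 symbols) and 27 rows with a date for a symbol were not named. Gene coordinates are those of the table on mm9. Promoters are RefSeq windows on GRCm38.p6, matched by symbol. Alternatives were pseudocounts of 1 and 0.01, a minimum of 5 FPKM or none, quantile and upper quartile scaling, a fit over the 2 injured groups or over 18 groups, library weights, no fold threshold, A or B alone, replicate blocks, and each sample left out in turn.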

Additional observations from a re-analysis of the deposited data

Results flagged for a closer look

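In 416 groups of 5 values (104 genes in 4 groups) 18 held 1 mouse far from the others on the log2 scale, and chance flags about 1 in 20. In injured muscle these were Cish in mouse 03 at 24 h (8.97 FPKM, next 1.48), Irgm2 in mouse 04 at 10 h (19.8, next 30.3), Comp in mouse 05 at 10 h (1.15, next 4.05) and Bglap in mouse 03 at 24 h (0.0201, the others listed at 0). In control muscle at 24 h they were Bcl2a1b in mouse 02 (0.279 FPKM), Tnnt1 in mouse 01 (7.54 FPKM), Cdt1 in mouse 05 (0.0541 FPKM, low) and, in mouse 03, Tnip2 (1.25 FPKM), Csf3r (0.169 FPKM), Clec4d (0.539 FPKM) and Aurka (1.3 FPKM, low). In control muscle at 10 h they were Camp in mouse 04 (0.135 FPKM, the others listed at 0), Otud1 in mouse 03 (4.14 FPKM), C7 (1.07 FPKM) and Scd1 (1.85 FPKM, low) in mouse 03, Tnnt1 in mouse 05 (1.67 FPKM, low), and in mouse 02 Slc7a2 (16.7 FPKM, low) and Tbc1d1 (40 FPKM, high).

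For 8 genes described here the 24 h minus 10 h difference of the injured leg differed from that of the control leg in limma. Injured minus control, the log2 values were 4.38 for Nppb, 3.80 for Ms4a7 and 3.78 for Bcl2a1b, and -4.27 for Gm4841, -1.91 for Irgm2, -1.60 for Tnip2, -1.48 for Fam179a and -1.38 for Tead3. For Gm4841 the injured difference was -2.93 and the control difference, which was not called, 1.34.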

How the results depend on the processing

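The main counts were 560 genes higher and 164 lower in injured muscle, 4 and 17 in control muscle, and 3 and 6 in the test between legs. Of 104 genes called in injured muscle, none changed sign there in an alternative that gave a value. Of 17 named genes that were not called, 7 changed sign in at least 1 alternative (Asns, Cxcl1, Cxcl5, Ddit3, Fos, Il6 and Myog, with values between -0.74 and 0.58, apart from Il6 at -0.94 to 0.04) and 4 were called in at least 1 (Chac1, Nr1d1, Socs3 and Top2a). For injured muscle, genes called higher numbered 303 with a pseudocount of 1, 245 with a minimum of 5 FPKM, 269 with the 2 injured groups only, 350 with library weights, 1503 with no fold threshold, 41 with B alone and 364 without the 10 h muscles of mice 01 and 02. Genes called lower numbered 94, 96, 128, 255, 808, 97 and 136 in the same order, and 257 after quantile normalization. Leaving out 1 sample gave 281 to 818 higher (281 without mouse 05 and 818 without mouse 03 of 24 h) and 142 to 202 lower.

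For control muscle the count was 1 higher with a minimum of 5 FPKM, 83 with library weights, 15 with no fold threshold, 9 with A alone, 1 with B alone and 8 with a replicate block. Genes lower numbered 9 with a pseudocount of 1, 5 with a minimum of 5 FPKM, 10 with no filter, 11 after quantile normalization, 28 after upper quartile scaling, 62 with weights, 45 with A alone, 5 with B alone, 27 with a replicate block and 33 without mouse 03. Leaving out 1 sample gave 2 to 7 higher and 7 to 35 lower (35 without mouse 05 of 24 h, 7 without mouse 04 of 10 h).

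For the test between legs the counts of higher and lower genes were 5 and 12 with a pseudocount of 1, 0 and 2 with 0.01, 0 and 3 with a minimum of 5 FPKM, 3 and 10 with no filter, 15 and 27 after quantile normalization, 9 and 13 after upper quartile scaling, 18 and 13 with 18 groups, 41 and 115 with weights, 33 and 18 with A alone, 0 and 0 with B alone, and 1 and 3 without the 10 h muscles of mice 01 and 02. Without mouse 03 of 24 h they were 27 and 31, and 231 and 116 with a replicate block on top. Leaving out 1 sample gave 0 to 110 higher and 2 to 45 lower, the highest without the injured muscle of mouse 03 at 24 h. Between legs, 1442 genes had an unadjusted limma p under 0.05 in the main design.

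With the replicate number as a block, injured muscle had 521 genes higher and 180 lower, and the test between legs 2 and 18. The number names different mice at the 2 times, so it pairs nothing there. With the animal as a replicate block, which pairs the legs, the test between legs called 65 and 81. In the fit over 18 groups 1 incomplete library of a later time was left out. Depth is unknown, so no limit from counting can be given.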
